A study of Mus musculus with 3 samples.

Results

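The genes for voltage-gated sodium and calcium channels were examined in RNA from the medial prefrontal cortex (mPFC) of the mouse, an area at the front of the cortex. The set was chosen by gene symbol, not by level, as pore-forming and accessory subunits, in 34 names. Scn2a1 is an older symbol of Scn2a, so the names stand for 33 genes, and all 33 had a row among the 46073 Ensembl genes of the table. The tissue came from naïve C57BL/6 mice aged 3 months, with no treatment, transgene or second condition in the labels. The series has 3 samples, 1 each of DNA enriched for methylated cytosine (MeDIP), input DNA and RNA, and the RNA table was the file used; the DNA samples were not analysed here. The design text gives 3 replicates for RNA-seq, but the table holds 1 value per gene. So values are given with no error, and differences between genes have no replicates behind them and no test.

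Voltage-gated sodium channels open on depolarisation and carry the rising phase of the action potential, and voltage-gated calcium channels turn depolarisation into calcium entry that drives transmitter release, dendritic signalling and transcription. Each channel is built around 1 large pore-forming subunit, alpha for sodium and alpha1 for calcium, whose gene family has members used in brain, skeletal muscle, heart, sensory neurons or retina. Sodium channel beta subunits are single-pass membrane proteins that change gating and cell adhesion. The calcium channel beta, alpha2delta and gamma subunits bind high-voltage-activated alpha1 subunits and set their trafficking and gating, while T-type channels can work without them.

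Levels are in FPKM (fragments per 1000000 mapped, divided by transcript length in kilobases), a unit that allows genes to be ranked within the sample. The detection floor was 1 FPKM. Of the 33 channel genes 24 (72.7%) were detected, against 31.5% of all rows and 58.6% of the 20635 protein-coding rows. At 10 FPKM or more stood 19 of the 33, against 14.6% of all rows and 29.1% of protein-coding rows. The median of the 33 was 14.0 FPKM (geometric mean 7.28 FPKM), where the median of protein-coding rows was 2.59 FPKM. The levels ran from Cacnb3 at 72.1 FPKM, above 95.8% of protein-coding rows, down to Scn4a at 0.00217 FPKM, and no channel gene was listed at 0.

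Genes known to be used in brain were higher than those known mainly from skeletal muscle, sensory neurons or retina. All 23 genes assigned to brain from textbook knowledge were detected, between 3.71 and 72.1 FPKM with a median of 19.6 FPKM. Counted among them were 8 genes that heart, muscle or sensory neurons are also known to use (Scn4b, Cacna1c, Cacna1d, Cacna1g, Cacna1h, Cacna2d1, Cacnb1 and Cacnb2), at 4.53 to 32.7 FPKM. Of the other ten, assigned to skeletal muscle, sensory neurons, retina or, for Scn7a, to no class, 1 was detected, and they lay between 0.00217 and 1.07 FPKM. The lowest brain gene, Scn3a, was 3.46 times the highest of the others, Cacna2d4, whose value is uncertain because another gene lies within its span. The assignment was made with earlier results of these data known and put all shared genes on the brain side, so the separation of the sets is a description and supports nothing further. In bulk tissue, fewer cells that use a gene and less RNA per cell cannot be told apart.

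**Figure D1:**
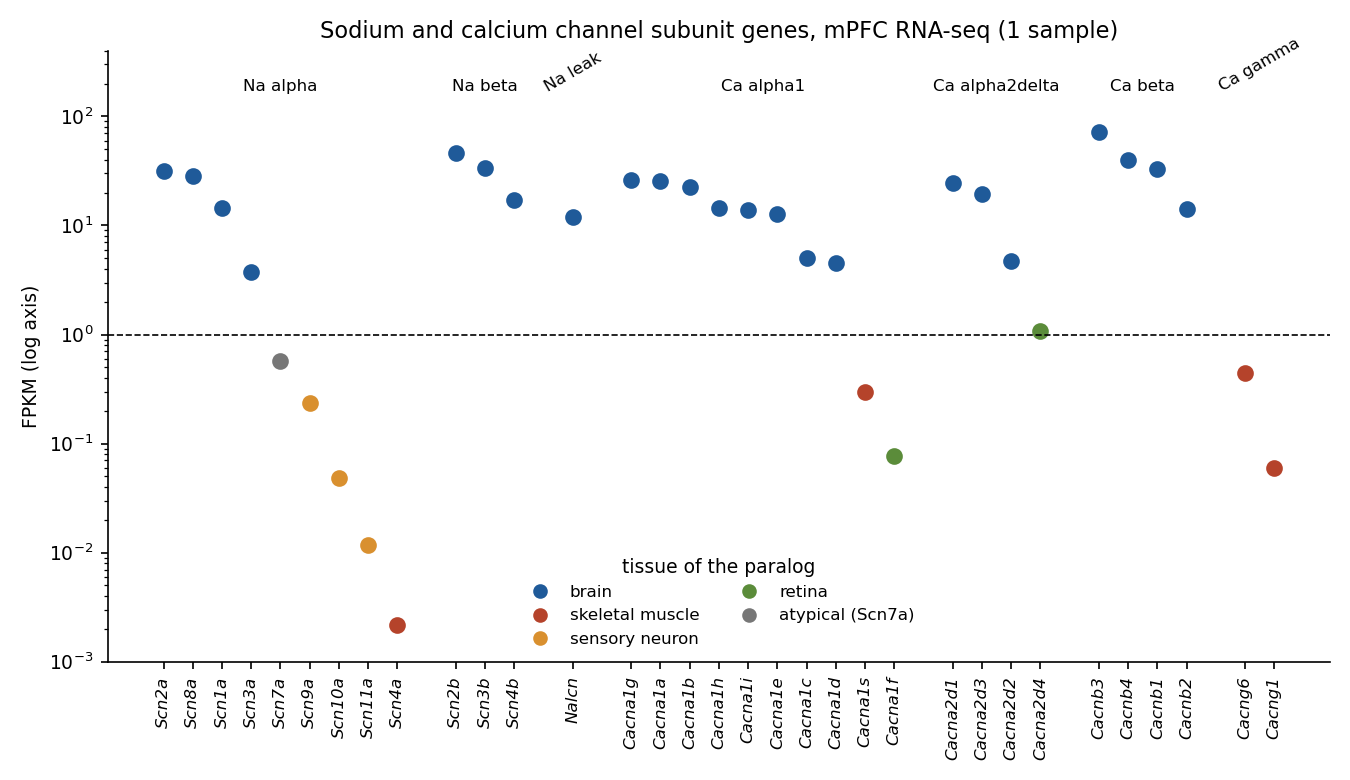
FPKM (log axis) of each of the 33 channel genes in the RNA sample, 1 point per gene, ordered within each subunit family and coloured by the tissue of the paralog; the dashed line is 1 FPKM. All genes assigned to brain, shared ones included, lie above the line, and of the other ten only Cacna2d4, at 1.07 FPKM, reaches it.

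Upstream sequence is shown for 5 members that differ in CpG content and in RNA level, since the series is about DNA methylation, which in mammals falls mostly on CpG. The sequences are the 250 bases before the start of transcription, from RefSeq on GRCm38.p6 (the assembly also called mm10), with each CpG in capitals. Scn2a (chr2:65620519-65620768 on the plus strand) and Scn2b (chr9:45117626-45117875 on the plus strand) are CpG-poor and were well expressed. Scn11a (chr9:119825457-119825706 on the minus strand) is CpG-poor and was at 0.0118 FPKM. Scn4b (chr9:45138374-45138623 on the plus strand), the neighbour of Scn2b, and Cacna1i (chr15:80286988-80287237 on the plus strand) are CpG-rich and were expressed.
Scn2a: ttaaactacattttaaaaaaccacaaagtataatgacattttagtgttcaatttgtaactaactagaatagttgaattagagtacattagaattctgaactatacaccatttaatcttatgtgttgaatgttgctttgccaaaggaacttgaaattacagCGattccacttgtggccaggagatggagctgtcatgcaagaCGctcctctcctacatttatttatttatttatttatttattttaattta
Scn2b: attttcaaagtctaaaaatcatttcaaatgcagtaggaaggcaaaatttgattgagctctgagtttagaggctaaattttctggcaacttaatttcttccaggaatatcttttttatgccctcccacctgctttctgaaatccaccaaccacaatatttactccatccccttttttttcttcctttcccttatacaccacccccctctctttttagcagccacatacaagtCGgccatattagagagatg
Scn11a: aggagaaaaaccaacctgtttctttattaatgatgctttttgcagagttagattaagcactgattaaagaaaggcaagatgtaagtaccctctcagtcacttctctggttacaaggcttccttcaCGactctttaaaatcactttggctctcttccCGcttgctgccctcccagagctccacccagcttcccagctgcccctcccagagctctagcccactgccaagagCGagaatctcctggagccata
Scn4b: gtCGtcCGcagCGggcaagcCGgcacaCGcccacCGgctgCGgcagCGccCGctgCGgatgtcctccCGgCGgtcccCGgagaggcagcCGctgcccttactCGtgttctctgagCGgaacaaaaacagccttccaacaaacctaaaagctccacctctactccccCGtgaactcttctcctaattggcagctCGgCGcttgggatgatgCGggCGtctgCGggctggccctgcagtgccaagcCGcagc
Cacna1i: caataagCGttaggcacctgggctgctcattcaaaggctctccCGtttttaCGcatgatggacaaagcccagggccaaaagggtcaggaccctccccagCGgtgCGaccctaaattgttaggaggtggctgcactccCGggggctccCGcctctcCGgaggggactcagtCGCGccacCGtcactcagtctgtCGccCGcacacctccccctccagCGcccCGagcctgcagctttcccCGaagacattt
These stretches hold 2, 1, 3, 23 and 16 CpG respectively.

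Among sodium channel alpha subunits, Scn2a and Scn8a carried most of the RNA. Scn2a, the subunit of axon initial segments and unmyelinated axons of excitatory neurons, was at 31.9 FPKM. Scn8a, which sets the low firing threshold at the distal initial segment and is the main subunit of mature nodes of Ranvier, was at 28.7 FPKM. These levels were within 1.11-fold of each other.

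Scn1a, the subunit on which fast-spiking inhibitory neurons depend most, was at 14.4 FPKM, 2.21-fold below Scn2a and 1.98-fold below Scn8a. Scn3a, best known from the embryonic brain, was lowest of the brain subunits at 3.71 FPKM, 8.60-fold below Scn2a. Of the summed FPKM of the 9 alpha genes, 79.6, Scn2a held 40.1%, Scn8a 36.0%, Scn1a 18.2% and Scn3a 4.66%. The remaining 5 alpha genes were each under 1% of that sum.

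The alpha subunits of muscle and of sensory neurons were all under 1 FPKM. Scn4a, the subunit of skeletal muscle, was at 0.00217 FPKM, the lowest of all members. Scn9a, a subunit of nociceptors and sympathetic neurons in which loss of function abolishes pain, was at 0.236 FPKM. Scn10a and Scn11a, the tetrodotoxin-resistant subunits of nociceptors, were at 0.0488 and 0.0118 FPKM.

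Set against Scn2a, these were ratios of 135 for Scn9a, 654 for Scn10a and 2705 for Scn11a, and the ratio to Scn4a was larger still. At such low levels a ratio rests on few fragments and its size is not precise. On the log2(FPKM + 1) scale, which bounds the weight of low values, Scn2a lay 4.73 above Scn9a, 4.97 above Scn10a, 5.02 above Scn11a and 5.04 above Scn4a. Scn7a, an atypical relative that senses extracellular sodium in glia and neurons of the circumventricular organs and is not opened by voltage like the others, was at 0.568 FPKM.

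Of the sodium channel beta subunits listed, all 3 were detected, at levels above that of Scn1a. Scn2b, which is linked to the alpha subunit by a disulphide bond, was second of all members at 45.9 FPKM. Scn3b, which binds without such a bond, was at 33.4 FPKM, within 1.37-fold of Scn2b. Scn4b, known for its part in resurgent sodium current and also expressed in heart, was at 17.0 FPKM, 2.70-fold below Scn2b. The summed FPKM of these 3 beta genes was 1.21 times that of the 9 alpha genes.

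The sodium leak channel gene Nalcn, whose product carries a steady inward current near rest, was at 11.9 FPKM. Its complex needs Unc79, Unc80 and a Fam155 protein. Unc80, at 21.5 FPKM, was 1.798 times Nalcn, and Fam155a, at 21.1 FPKM, was 1.77 times Nalcn. Unc79 was at 10.2 FPKM and the other Fam155 gene, listed as Tmem28, at 4.10 FPKM. So 4 of 4 of these partners were detected, against 58.6% of protein-coding rows, with a median of 15.7 FPKM.

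**Figure D2:**
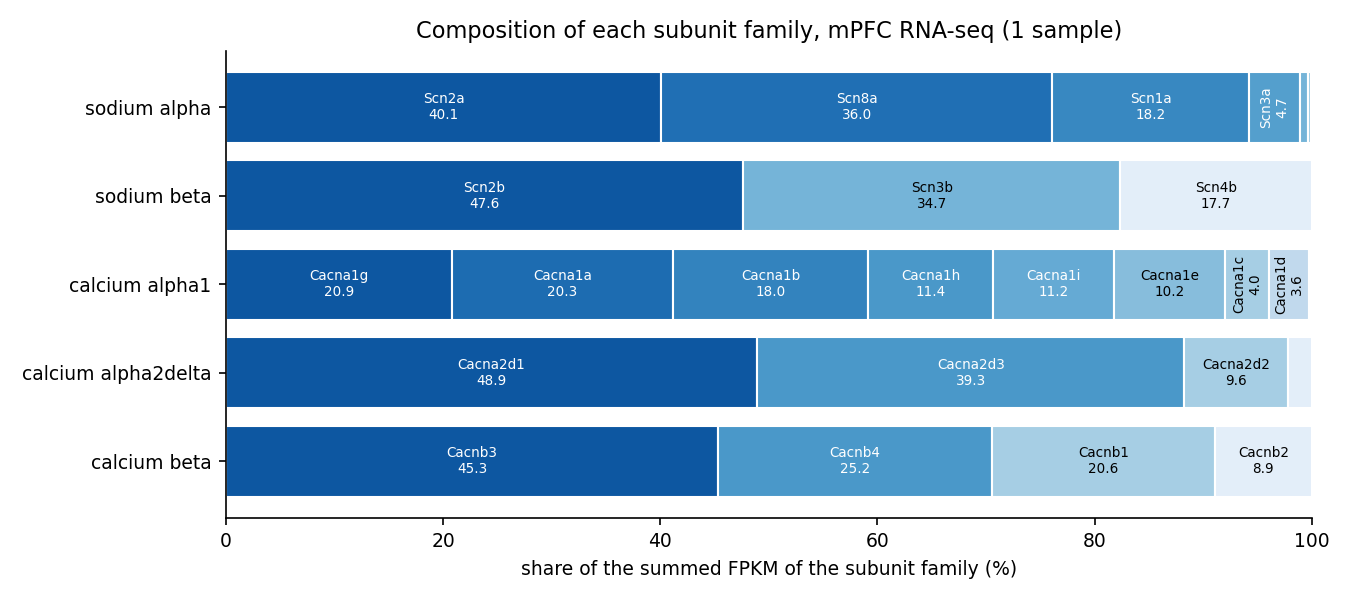
Share (%) of each gene in the summed FPKM of its subunit family in the RNA sample, 1 bar per family with segments ordered by level; segments under 3.5% are drawn without a label. Scn2a and Scn8a fill 40.1% and 36.0% of the sodium alpha bar, while 6 genes each hold over 10% of the calcium alpha1 bar.

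The calcium channel alpha1 subunits were spread more evenly than the sodium alpha subunits. Their 10 genes summed to 125 FPKM, 1.57 times the sodium alpha sum, and the highest of them, Cacna1g, held 20.9%. The presynaptic class (P/Q, N and R type) held 48.6% of the sum, the T-type class 43.5% and the L-type class 7.95%.

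In the presynaptic class, Cacna1a, the P/Q-type subunit that triggers fast transmitter release, was at 25.4 FPKM. Cacna1b, the N-type subunit, was at 22.6 FPKM, within 1.13-fold of Cacna1a. Cacna1e, the R-type subunit, was at 12.8 FPKM, 1.98-fold below Cacna1a. This class summed to 60.8 FPKM, 6.11 times the L-type sum.

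T-type channels open at low voltage and support burst firing and rebound spikes, and all 3 of their genes were detected. Cacna1g was highest at 26.1 FPKM, 1.82-fold above Cacna1h at 14.3 FPKM and 1.86-fold above Cacna1i at 14.0 FPKM. Cacna1h and Cacna1i were within 1.02-fold. Cacna1g and Cacna1h are also known from heart, and Cacna1h from sensory neurons.

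L-type channels couple depolarisation to gene transcription in neurons and to contraction in muscle, and their 4 genes split into a detected and an undetected pair. Cacna1c, the L-type subunit of both brain and heart, was at 5.05 FPKM and Cacna1d, shared by brain, sinoatrial node and hair cells, at 4.53 FPKM, within 1.11-fold of each other. Cacna1s, the voltage sensor of skeletal muscle, was at 0.295 FPKM, 17.1-fold below Cacna1c. Cacna1f, the subunit of photoreceptor synapses, was at 0.0767 FPKM, 59.1-fold below Cacna1d.

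Among the alpha2delta subunits, which are extracellular proteins that carry alpha1 to the membrane, 2 genes held most of the RNA. Cacna2d1, a binding site of gabapentin that also serves muscle, was at 24.4 FPKM. Cacna2d3 was at 19.6 FPKM, within 1.24-fold of Cacna2d1. Cacna2d2, the other gabapentin-binding subunit, prominent in cerebellar Purkinje cells, was at 4.76 FPKM, 5.11-fold below Cacna2d1.

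Cacna2d4, a subunit of photoreceptor synapses, was at 1.07 FPKM, just above the detection floor, and it was the only one of the muscle, sensory and retina genes to reach it. RefSeq places Lrtm2 wholly inside the span of Cacna2d4, and Lrtm2 was at 17.2 FPKM, 16.0 times its host. The handling of strand and overlap is not given in the sources used here, so the value of Cacna2d4 is uncertain.

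All 4 calcium channel beta genes were detected, and they included the highest member of the whole set. The beta subunits are intracellular and bind the linker between the first and second repeat of alpha1. Cacnb3 was at 72.1 FPKM, Cacnb4 at 40.1 FPKM, Cacnb1 at 32.7 FPKM and Cacnb2, the main beta subunit of heart, at 14.2 FPKM.

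Cacnb3 was 1.799-fold above Cacnb4 and 2.20-fold above Cacnb1, and it held 45.3% of the family sum. The 4 beta genes summed to 159 FPKM, 2.25 times the sum of the 7 high-voltage-activated alpha1 genes that they can bind. The alpha2delta sum was 0.703 times that alpha1 sum. Cacnb1, which is also the beta subunit of the skeletal muscle channel, overlaps Rpl19 by 1032 bases in RefSeq, and Rpl19, a ribosomal protein gene, was at 132 FPKM, so the value of Cacnb1 is uncertain in the same way.

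The gamma subunits of the list stood apart from the beta subunits. Cacng1, the gamma subunit of the skeletal muscle calcium channel, was at 0.0596 FPKM, and Cacng6, its closest relative and likewise a muscle gene, at 0.443 FPKM. Cacnb1 and Cacng1 take part in the same muscle complex with Cacna1s, and here Cacnb1 was 549-fold above Cacng1. Cacng1 is under the floor and the value of Cacnb1 is uncertain, so the size of this ratio is not precise. Of that muscle complex the subunits also used in brain, Cacnb1 and Cacna2d1, were detected and the muscle-only ones were not.

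The difference between brain and other paralogs was also taken over lists, on the log2(FPKM + 1) scale. The median of the 23 brain genes lay 4.13 above that of the 4 skeletal muscle genes, 4.29 above that of the 3 sensory neuron genes and 3.78 above that of the 2 retina genes. With a pseudocount of 0.1 in place of 1 the first and second of these differences were 6.29 and 7.05, and with 0.01 all 3 were larger again, at 7.07, 8.38 and 6.00. Of the 31 fixed pairs of subunit genes, 17 differed at least 2-fold on this scale. The 14 others included every pair among Cacna1a, Cacna1b and Cacna1e and every pair among the T-type genes. They also included Cacng6 and Cacng1, which differ 7.43-fold as plain FPKM but are both under the floor. Several of the 31 pairs set a brain gene against a muscle, sensory neuron or retina gene. No share was computed over other gene pairs, so the count of 17 describes the chosen pairs only.

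Sodium channel genes lie in clusters, and neighbours in a cluster differed widely. On chromosome 2 a stretch of 1328 kb (GRCm38.p6) holds 8 protein-coding genes, of which 5 are sodium channel alpha genes. In order along the chromosome these are Scn3a (65457118 to 65567591), Scn2a (65620764 to 65767447), Scn1a (66270781 to 66440837), Scn9a (66480080 to 66635114) and Scn7a (66673426 to 66784910). Their levels in that order were 3.71, 31.9, 14.4, 0.236 and 0.568 FPKM.

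The detected sodium channel genes of the cluster were thus on the Scn3a side and the undetected ones on the Scn7a side. The gap between Scn1a and Scn9a is 39.2 kb, and across it the level differed 61.2-fold. Between Scn2a and Scn1a lie Csrnp3 at 11.8, Galnt3 at 0.589 and Ttc21b at 2.15 FPKM. A long non-coding gene that overlaps Scn9a by 67393 bases in RefSeq, Gm13629, was at 2.43 FPKM, above Scn9a itself. So the value of Scn9a, which is under the floor, and the 61.2-fold ratio are uncertain.

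**Figure D3:**
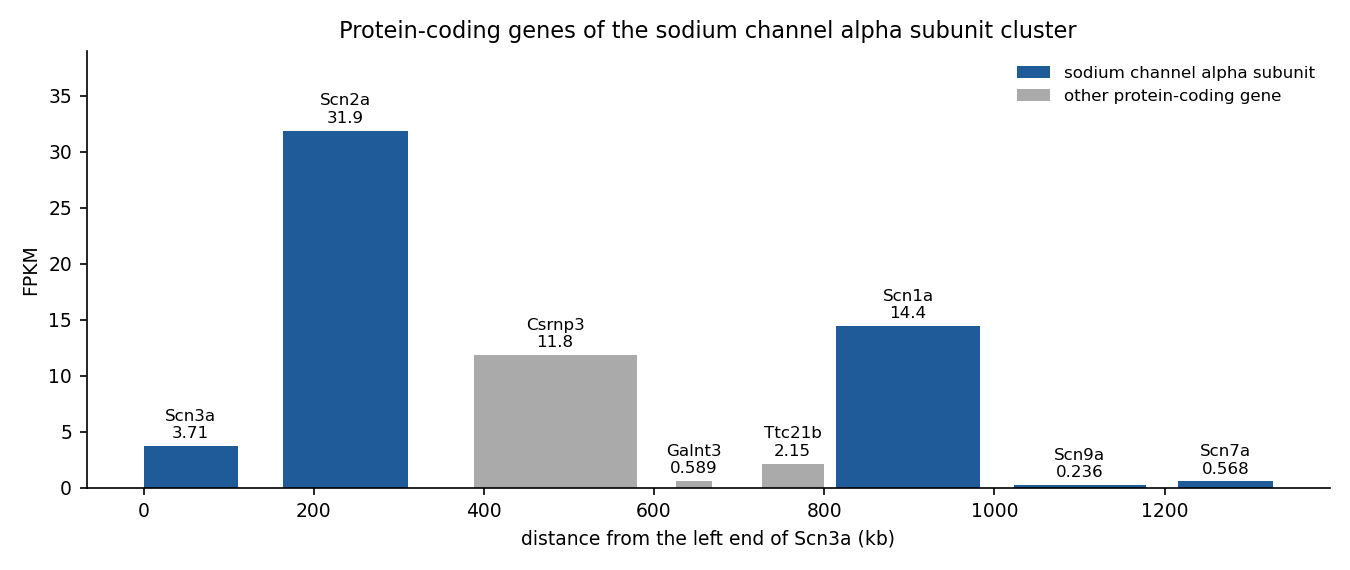
FPKM of the 8 protein-coding genes between Scn3a and Scn7a in the RNA sample; each bar is as wide as its gene and stands at its distance in kb from the left end of Scn3a. Scn2a at 31.9 and Scn1a at 14.4 FPKM are the highest bars, while Scn9a and Scn7a at the right end stay under 1 FPKM.

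On chromosome 9 there are 2 further pairs of neighbours. Scn2b (45117876 to 45130070) and Scn4b (45138624 to 45154155), separated by 8.55 kb, were both detected, at 45.9 and 17.0 FPKM. Scn10a (119608456 to 119719322) and Scn11a (119753763 to 119825456), separated by 34.4 kb, were both far under the floor. The distances are between annotated gene ends and say nothing of shared control.

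In all, 21 of the 33 channel genes share their span with another RefSeq gene, mostly non-coding RNA genes and pseudogenes. Protein-coding genes overlap 6 of them: Cacna1c, Cacna1d, Cacna1h, Cacna2d3, Cacna2d4 and Cacnb1. Of the 49 overlapping genes 22 were matched to a row by symbol, and of these 3, Lrtm2, Rpl19 and Gm13629, had a higher FPKM than the channel gene they overlap. The other matched genes were not higher than the channel gene they overlap, and the genes without a matched row could not be compared.

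Among detected genes with a known window, most calcium channel genes had a CpG-rich promoter and most sodium channel genes did not. RefSeq windows of 300 bases, from 250 before to 50 after the start, were found for 26 of the 33 genes. They came to 36 windows, since 8 genes have several starts. Without a window were Cacna1a, Cacna1g, Cacna1h, Cacna2d4, Cacng1, Scn3a and Scn3b. A window was called CpG-rich at an observed/expected CpG ratio of 0.6 or more with a GC content of 50% or more, and a gene where any of its windows was. By this rule 13 of the 26 genes were CpG-rich, where 49.8% of all protein-coding genes with a window were. Among brain genes with a window, 13 of 18 (72.2%) were CpG-rich, near the 74.4% of all detected protein-coding genes. Among the others 0 of 8 were, against 14.9% of undetected protein-coding genes.

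Within the brain genes, 11 of 12 calcium channel genes were CpG-rich and 2 of 6 sodium and leak channel genes were. The CpG-rich pair were Scn8a, with a ratio of 1.05, and Scn4b, with 0.795. The CpG-poor ones were Scn2a at 0.529 in the higher of its 2 windows, Scn1a at 0.305, Scn2b at 0.200 and Nalcn at 0.171. Cacna1e, at 0.482, was the calcium channel gene without a CpG-rich window. Its only window, on the minus strand, ends at 154726170, inside a gene span that reaches 154884785. The window of Scn4a, also on the minus strand, likewise ends at 106349640 in a span that reaches 106365559. So a window need not lie at the outer end of its gene, and other starts of these genes were not examined. These counts are small and were not tested.

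The CpG-poor brain genes were not the low ones: their median was 14.4 FPKM, from Nalcn at 11.9 to Scn2b at 45.9 FPKM, where the CpG-rich ones had a median of 19.6 FPKM, from 4.53 to 72.1 FPKM. In Scn2a and Scn11a, both CpG-poor in the upstream sequences printed above, the RNA level differed 2705-fold. In Scn2b and Scn4b, neighbours on the chromosome, 1 CpG stood against 23 in the printed bases, and the CpG-poor gene had the higher level. Cacna1c and Cacna1d each have 1 CpG-rich window among several, with ratios of 1.16 and 1.18. The values are per gene, so the start in use is not known here.

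**Figure D4:**
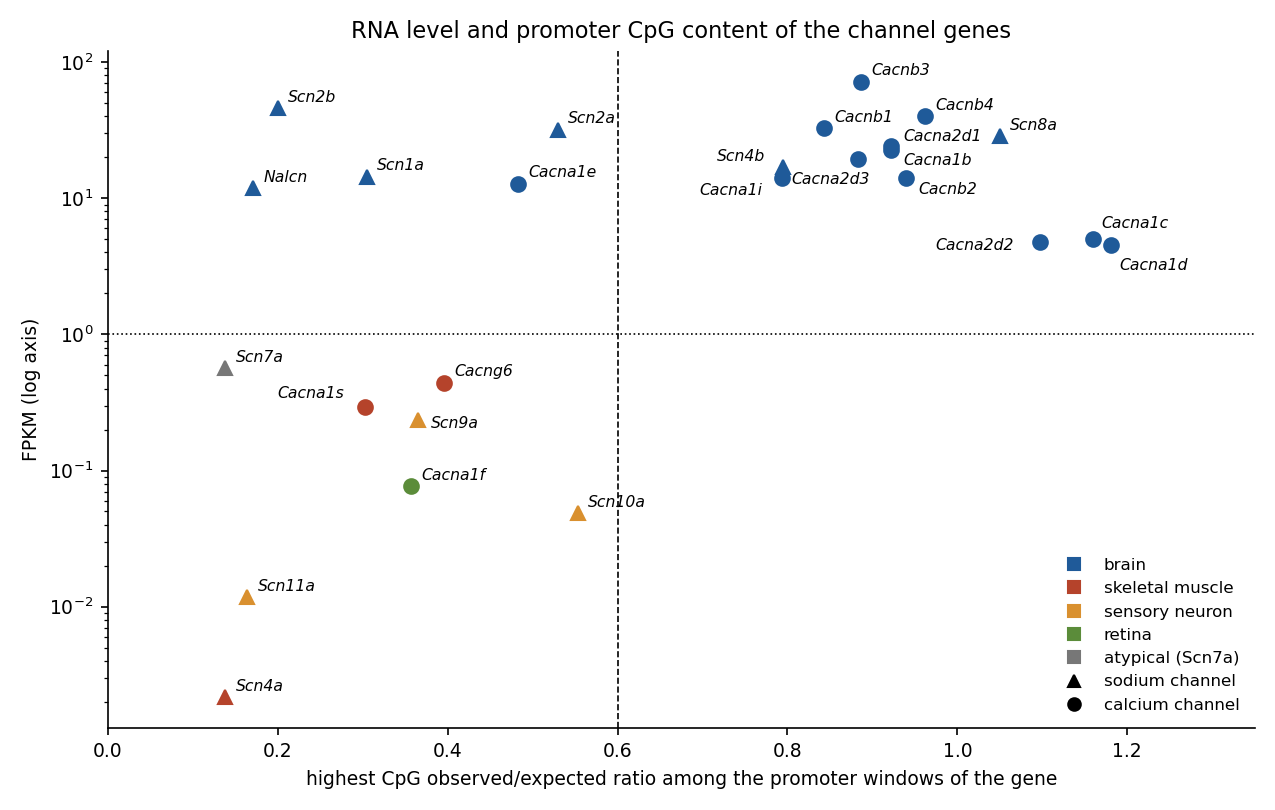
FPKM (log axis) against the highest observed/expected CpG ratio among the promoter windows of each of 26 channel genes, triangles for sodium and circles for calcium channel genes, coloured by the tissue of the paralog; the lines mark a ratio of 0.6 and 1 FPKM. The 8 muscle, sensory neuron, retina and atypical genes all lie at ratios of 0.553 or less, and so do Nalcn, Scn1a, Scn2a, Scn2b and Cacna1e at 11.9 to 45.9 FPKM.

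A pair of short motifs was searched in the same windows on both strands. The GC box GGGCGG, the letters bound by Sp1, was in windows of 13 of the 26 genes, 14 of 36 windows, against 35.7% of all 32851 windows; it overlaps CpG by its own letters. The TATA box letters TATAAA were in 2 of 36 windows, of Scn2a and Cacna1d, against 13.6% of all windows. No match says only that these letters are not in these windows.

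Partners of the channels were taken from fixed lists. Beside the counts of detected partners stands the 58.6% of protein-coding rows that were detected. All 10 genes of the axon initial segment and of sodium channel binding were detected, with a median of 35.7 FPKM. Fgf13, an intracellular fibroblast growth factor homologue that binds the sodium channel tail, was highest at 67.2 FPKM. Ank3, ankyrin-G, which holds sodium channels at the initial segment, was at 53.6 FPKM, and the adhesion protein gene Cntn1 at 50.8 FPKM. The lowest were also fibroblast growth factor homologues, Fgf14 at 8.51 and Fgf11 at 5.06 FPKM.

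All 10 genes of the presynaptic calcium channel scaffold and release machinery were detected too, with a median of 36.4 FPKM. Snap25, Syt1 and Stx1a, of the release machinery itself, were highest at 1279, 303 and 135 FPKM. The scaffold genes Rims2 and Erc1 were lowest at 10.4 and 6.00 FPKM.

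Of 13 calcium channel regulators 8 (61.5%) were detected, near the 58.6% of protein-coding rows, with a median of 10.7 FPKM. The calmodulin genes Calm3 and Calm2, whose product is the calcium sensor bound to the channel tail, and the kinase gene Camk2a were highest, at 1260, 1032 and 701 FPKM. The lowest were Rem1 at 0.303 and Rrad at 0.416 FPKM, small GTPases of the RGK group that inhibit calcium channels and are best known from heart and muscle. Among the Stac adaptors, Stac2 was at 36.3 FPKM and Stac3, the adaptor required by the skeletal muscle channel, at 0.751 FPKM, 48.4-fold lower.

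Of 9 genes for intracellular calcium release and its junctions 6 (66.7%) were detected, against 58.6% of protein-coding rows, with a median of 4.54 FPKM. Jph4 and Jph3, the junctophilins of neurons, were highest at 52.3 and 40.3 FPKM, followed by Ryr2, a ryanodine receptor of heart and brain, at 11.4 FPKM. Jph2, the junctophilin of heart and muscle, was lowest at 0.114 FPKM, 352-fold below Jph3, and the calsequestrin gene Casq1 was next at 0.578 FPKM. Ryr1, the release channel of skeletal muscle that Cacna1s gates, was at 1.04 FPKM, 10.9-fold below Ryr2.

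Markers of tissues outside the cortex were mostly under the floor, while neuronal markers were high. For the counts that follow, 58.6% of all protein-coding rows were detected. All 10 neuron markers were detected, from Slc32a1 at 18.6 to Snap25 at 1279 FPKM, and all 13 markers of glia and vessels, from Cspg4 at 1.66 to Mbp at 912 FPKM. Of 7 skeletal muscle markers 2 were detected, with Acta1 highest at 4.75 and the creatine kinase gene Ckm lowest at 0.0520 FPKM. Of 6 heart markers 1 was detected, Tnnt2 at 9.26 FPKM, and Actc1 was listed at 0. Of 6 sensory neuron markers 0 were detected, with Calca highest at 0.873 FPKM and Mrgprd listed at 0. Of 6 retina markers 1 was detected, Sag at 1.73 FPKM, with Grm6 lowest at 0.00253 FPKM. The summed levels were 8.98, 10.1, 2.33 and 2.33 FPKM for muscle, heart, sensory neuron and retina lists, and their part in the low levels of the muscle, sensory and retina channel genes was not tested.

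**Figure D5:**
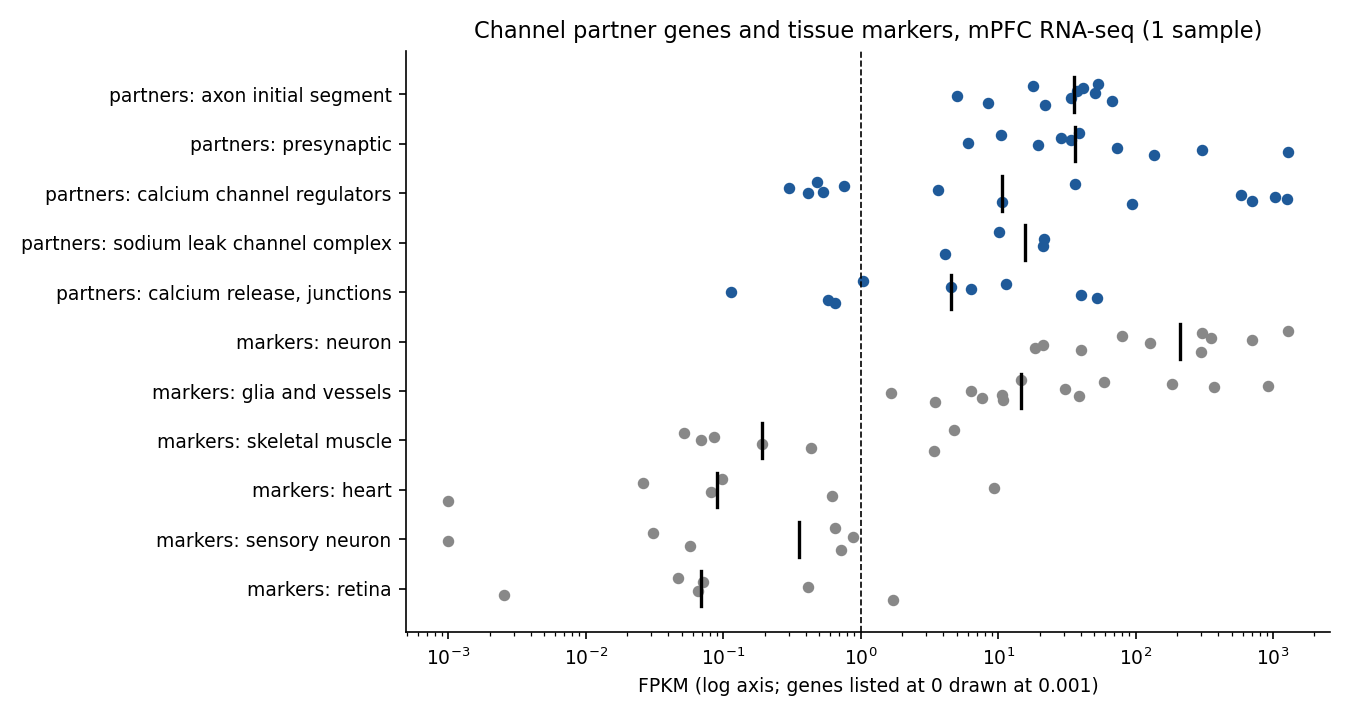
FPKM (log axis) of channel partner genes (blue) and tissue markers (grey) in the RNA sample, 1 point per gene, with a black bar at the median of each list and a dashed line at 1 FPKM; genes listed at 0 are drawn at 0.001. All points of the axon initial segment, presynaptic, leak channel, neuron and glia lists lie above the line, and all 6 sensory neuron markers lie under it.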

How the data were processed

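The labels' protocols give extraction of mPFC RNA with Tri-reagent, DNase treatment and Illumina TruSeq RNA v2 libraries. The submitters' processing notes name CASAVA 1.8.2, TopHat and Cufflinks on build mm10; for the other versions, the annotation, strand and the combining of libraries, the sources used here give nothing. The authors deposited FPKM, in 2 value columns that hold the same value in 46073 of 46073 rows, counted as 1 sample. Depth is unknown: in 1465 pseudogenes, FPKM times length less 204 bases was at a whole multiple of the most repeated value (within 0.4%) in 15.4%, so fragments were not recovered.

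Symbols for 45139 rows came from an Ensembl table. Gene classes, positions and promoters came from RefSeq (GRCm38.p6), matched by symbol. Pairs were called apart at 2-fold on the log2(FPKM + 1) scale, computed from the deposited FPKM. The members, gene lists, tissue assignment and pairs were chosen with earlier results of these data known, and the CpG limits, motifs and printed sequences after the file was seen. All members are named, with the 3 highest and 2 lowest genes of each partner list, the highest and lowest of each marker list and the genes of the pairs; others named were chosen after their values were seen. Protein motifs and identity were planned but need protein sequences not used here. Floors, pseudocounts, scalings and summaries were varied. The counting of CpG in a sequence and of list genes at the floor was checked on simulated data with known answers. The observed/expected ratio, the CpG-rich call and the background shares were not part of that check. Software was Python 3.11.15 with pandas 2.3.3, numpy 2.4.6 and, for plots, matplotlib 3.10.9.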

Additional observations from a re-analysis of the deposited data

How the results depend on the processing

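The count of 24 detected channel genes was 28, 25 and 20 at floors of 0.1, 0.5 and 5 FPKM. It was 24 with values rescaled to a sum of 1000000 and 26, with Scn7a and Cacng6 added, when mitochondrial genes were left out of that sum. No share over all rows was computed at these other floors or scalings. So these counts do not set the members against other genes. The brain list stayed above the skeletal muscle, sensory neuron and retina lists in each setting run. That order was fixed beforehand, since every brain gene was above every gene of these lists and no setting changes gene order. Only the size of the differences could move. The log2 differences to these lists were 3.99, 4.11 and 3.66 for means in place of medians, 4.33, 4.49 and 3.98 without the brain genes shared with heart, muscle or sensory neurons, 6.29, 7.05 and 5.43 with a pseudocount of 0.1 and 7.07, 8.38 and 6.00 with 0.01. They were 4.41, 4.60 and 4.005 with rescaled values and 5.16, 5.50 and 4.59 with mitochondrial genes also left out of the sum. Pairs at least 2-fold apart numbered 18 with a pseudocount of 0.1 or 0.01 and as plain ratios, against 17. The background of detected genes was 58.6% over protein-coding rows and 50.1% over rows above 0, against 31.5%. The geometric mean of the 33 genes was 7.28 FPKM, against a median of 14.0 FPKM. Shares by FPKM times transcript length were not run, since transcript lengths were not used here, and leaving out a library was not run, since both value columns are the same. No paired analysis was possible because the series has 1 RNA sample and no result comes from a test. Depth limits most the values under 1 FPKM, whose ratios are not precise.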
